A study of Homo sapiens with 26 samples.

Results

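The progesterone receptor (PR) sites called in T47D cells after estradiol alone were set against those called after estradiol together with the progestin R5020. T47D is an established human breast cancer line that the labels class as ER+/PR+, so it carries both the estrogen receptor (ER) and PR. Cells had been kept for 48 hours in steroid-free serum and were then given 10 nM estradiol (E2), or 10 nM E2 and 10 nM R5020, for 45 min. Chromatin was immunoprecipitated with an in-house PR antibody and sequenced (ChIP-seq). The PR list of E2 held 7961 sites and that of E2+R5020 held 11908, which makes 19869 of the 87206 sites in the 10 lists of the series. There is 1 library behind each list, and replicate error could not be estimated. The intervals given below are 95% intervals that cover counting error over sites only and describe these libraries, not the hormones in general. A vehicle library had been subtracted from each list by the authors, and read depth is unknown. The 8 other lists are PR with R5020 alone, ER with E2, R5020 or both in T47D, ER with the same 3 treatments in PR-deficient T47D cells, and a reChIP after both hormones, in which chromatin pulled down with an ER antibody was pulled down again with the PR antibody. The sources used here do not say how the PR-deficient cells were made. The identity of the cells cannot be checked from lists of sites.

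PR is a nuclear receptor that binds DNA as a dimer once a progestin occupies its ligand pocket. R5020 is a synthetic progestin and so a direct ligand of PR. E2 is the main natural estrogen and the ligand of ER, not of PR. In breast cells the gene that encodes PR is itself a classical target of estrogen-bound ER. A list of PR sites after E2 alone therefore records what the PR antibody recovered without added progestin, and the list of both hormones what it recovered with it.

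Sites were classed by overlap between the lists, with 1 shared bp enough to count. A site listed with E2 alone is called lost, a site that overlapped is called kept, and a site listed with both hormones alone is called gained. The words describe the lists only: whether a lost site missed the authors' threshold with both hormones, or was removed by the subtraction or a filter, cannot be told apart here. Most sites of either list were absent from the other. Of the 7961 E2 sites, 975 were kept (12.2%, exact interval 11.5 to 13.0) and 6986 were lost (87.8%, 87.0 to 88.5). Of the 11908 sites of both hormones, 1001 were kept (8.41%, 7.91 to 8.92) and 10907 were gained (91.6%, 91.1 to 92.1). The gained sites outnumbered the lost sites, and the list of both hormones covered 3.99 Mb against 2.23 Mb for E2. Counting gaps of up to 1000 bp as overlap raised the kept share of the sites of both hormones to 13.2%. With the sites of both hormones restricted to scores at or above the lowest score of the E2 list, which was tried once the scores were known, 4.06% of the E2 sites were kept.

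Where sites were kept, they mostly covered the same stretch of DNA. The kept sites formed 1019 overlapping pairs, in which 42 E2 sites met more than 1 site of both hormones and 18 sites of both hormones met more than 1 E2 site. The median overlap was 224 bp, with quartiles of 165 and 287.5 bp. It covered a median of 79.8% of the E2 site and 74.1% of the site of both hormones. In 656 pairs (64.4%) the centres lay within 100 bp of each other, and in 679 pairs (66.6%) the overlap spanned at least 50% of both sites. The E2 site lay wholly inside the other in 260 pairs and the reverse held in 179. Few pairs sat at the edge of the rule. The smallest overlap was 3 bp and 13 pairs overlapped by under 20 bp, while 14 lost and 21 gained sites lay within 20 bp of a site of the other list without touching it. Beyond that edge, lost sites were a median of 28440.5 bp from the nearest site of both hormones, and 6.16% of them lay within 1000 bp of one. Gained sites were a median of 30606 bp from the nearest E2 site, and 5.24% lay within 1000 bp. Kept sites were longer than lost sites, with a median of 302 bp against 245 bp. Gained sites had a median of 290 bp and kept sites of the same list 316 bp. With every site set to 200 bp about its centre, so that length could not differ, 11% of the E2 sites and 7.42% of the sites of both hormones were kept.

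The score is the authors' own value for a site, in a unit not given in the sources used here. It rises in even steps, of 2.43 in the E2 list and 2.20 in the list of both hormones, and is given here as a number of steps within its own list. The lowest score kept by the authors was 9 steps with E2 and 7 steps with both hormones. In the E2 list the highest site reached 22 steps, and 4660 of 7961 sites sat at the lowest score. With both hormones the highest site reached 93 steps. The scales of the 2 lists may differ, so these heights do not show which list had the stronger binding. E2 sites of high score were kept far more often than those of low score. Of the E2 sites at 9 steps, 9.33% were kept (8.51 to 10.2). The share was 13.2% (11.7 to 14.7) at 10 steps, 16.3% (13.8 to 19.2) at 11 steps and 23.5% (19.2 to 28.2) at 12 to 13 steps. Of the 92 E2 sites at 14 or more steps, 56 were kept (60.9%, 50.1 to 70.9). These bins were chosen after the scores were seen. The median length hardly changed along them, from 249 bp at 9 steps to 234 bp at 14 or more.

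In the other direction the rise was smaller and did not go on to the highest scores. Of the sites of both hormones, 6.14% (5.45 to 6.88) were kept at 7 steps, 8.12% (7.18 to 9.14) at 8 steps, 12.9% (11.1 to 14.8) at 10 to 11 steps and 13.3% (10.9 to 16) at 12 to 15 steps. The share was 8.76% (5.95 to 12.3) at 16 to 23 steps and 12.7% (7.91 to 18.9) at 24 or more. Of the 100 highest-scoring sites of both hormones, 10 were kept and 90 were gained. That share of kept sites is near the 8.41% of the whole list. It hides a lower share at the lowest score, 6.14% at 7 steps. With the list ranked by score, and ties by length, 12.2% (10.9 to 13.6) of the top quintile were kept. In the lowest quintile the share was 4.07% (3.32 to 4.95). Length, by which ties were ranked, enters this contrast. The quintile above the lowest also had a median of 7 steps, with a median length of 338 bp against 246 bp. Of that quintile 8.27% were kept.

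**Figure D1:**
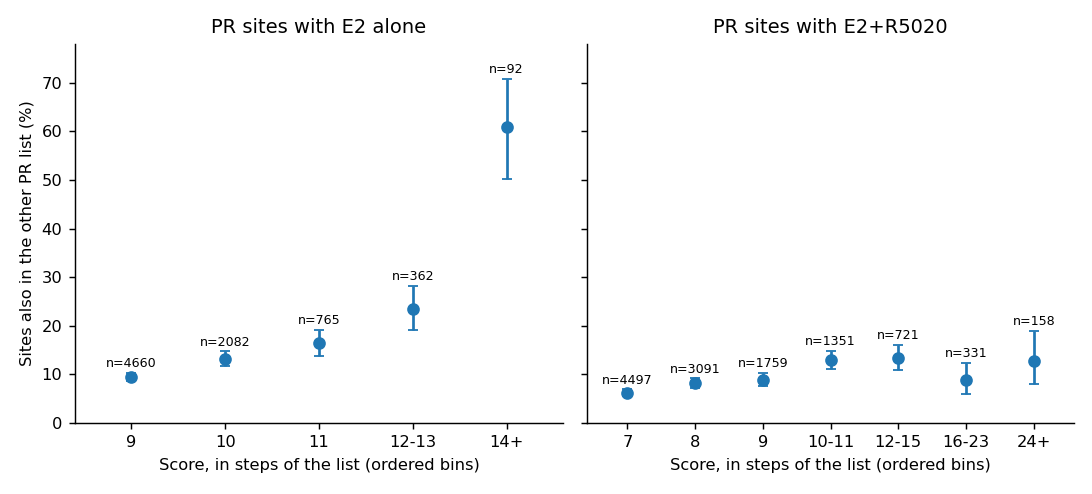
Share of PR sites that overlap a site of the other PR list (vertical axis, percent) by score in steps of the site's own list (horizontal axis, ordered bins), for E2 sites on the left and E2+R5020 sites on the right; bars are exact 95% intervals and n is the number of sites. The share rises from 9.33% to 60.9% along the E2 list and stays between 6.14% and 13.3% along the E2+R5020 list.

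High E2 sites had higher partners than pairs in general, and 8 of the 1019 pairs were high in both lists. The cutoffs for high were not alike. That of 14 steps took in 92 of the 7961 E2 sites. That of 16 steps took in 440 gained and 49 kept sites among the 11908 of both hormones. Among the 1019 pairs, 53 held a site of both hormones at 16 or more steps, and the E2 site in them had a median of 10 steps. In 63 pairs the E2 site reached 14 or more steps, and its partner had a median of 11 steps, with 31 of the partners at 10 steps or less. Over all 1019 pairs the partner of the E2 site had a median of 8 steps, and 803 partners had 10 steps or less. Both conditions held in 8 pairs, whose sites were short, with medians of 214.5 bp with E2 and 207.5 bp with both hormones. In the 53 pairs that were high with both hormones, the site of both hormones had a median length of 610 bp and the E2 site one of 261 bp. Across all pairs the rank correlation of the 2 scores was 0.19 (Spearman, n = 1019 pairs, which share the subtracted vehicle), a weak relation given only as a description.

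**Figure D2:**
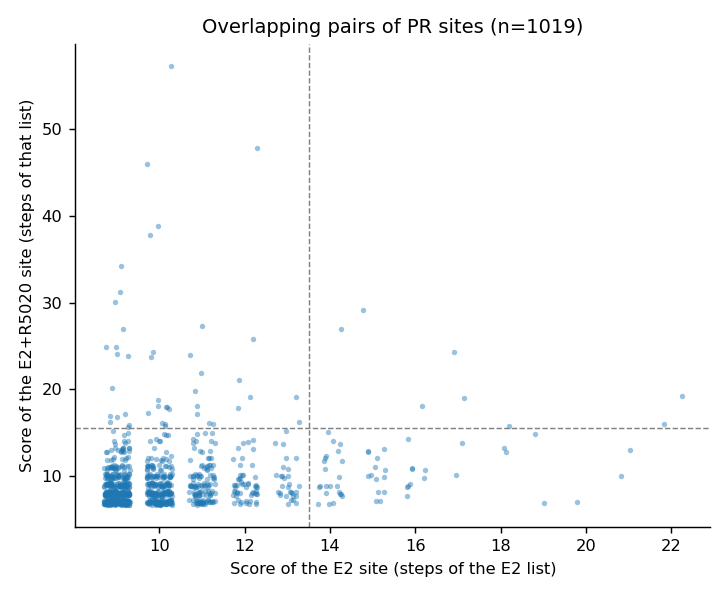
Score of the E2 site (horizontal axis, steps of the E2 list) against score of the overlapping E2+R5020 site (vertical axis, steps of that list) for 1019 overlapping pairs of PR sites; points are spread at random within a step. The dashed lines mark 14 and 16 steps, and 8 pairs lie above both.

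R5020 alone gave a different relation. Of its 100 highest-scoring PR sites, 60 met a site of both hormones (60.0%, 49.7 to 69.7), about as many as the 61 of the 100 highest E2 sites (61.0%, 50.7 to 70.6). The sites they met differed in height. The partners of the R5020 sites had a median of 20 steps and 34 of them reached 16 or more, while the partners of the E2 sites had a median of 11 steps and 8 reached 16 or more. Over the whole lists, 14.1% (13.3 to 15.0) of the 6358 R5020 sites met a site of both hormones, with partners at a median of 10 steps and 243 of them at 16 or more. For all E2 sites the share was 12.2%, with partners at a median of 8 steps and 53 at 16 or more. The difference was not tested, because the lists were called apart and hold 1 library each.

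Lost, kept and gained sites were then looked up in the 8 lists that had not been used to class them. The series has 1 vehicle PR library of T47D, so the R5020 PR list shares its subtracted control with the 2 lists compared. Lost sites were the class least often found elsewhere. No other list held 6078 of the 6986 lost sites (87.0%), against 581 of the 975 kept E2 sites (59.6%) and 7928 of the 10907 gained sites (72.7%). Kept sites are by their definition present in 2 lists, so they differ from the other classes in how they were picked.

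PR with R5020 alone is the nearest readout, since it is the same antibody with the progestin and without E2. Of all E2 sites 2.11% lay at a PR site of R5020, and of all sites of both hormones 6.71%. The share was 1.04% (0.820 to 1.31) of the lost sites, 9.74% (7.95 to 11.8) of the kept E2 sites, 10.6% (8.75 to 12.7) of the kept sites of both hormones and 6.35% (5.90 to 6.83) of the gained sites. Kept E2 sites exceeded lost ones by 8.70 percentage points (Newcombe interval 6.97 to 10.7). Kept sites exceeded gained ones by 4.24 points (2.42 to 6.34). The interval of that smaller difference took in 0 in 3 settings: 50% overlap of both sites (0.63 points), the higher-scoring 50% of each list (2.27 points) and the shared lowest score (3.69 points). Within score bins its interval left out 0 only at 9 steps (5.09 points) and at 10 to 11 steps (6.45 points). At 24 or more steps the difference was -19.4 points (-39.2 to 3.49). Gained sites exceeded lost ones by 5.31 points (4.79 to 5.83). Over whole classes, gained sites thus met the R5020 list more often than lost sites did, at a lower rate than kept sites.

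The ER lists of T47D parted by treatment. With E2, the ER list was met by 1.26% of all E2 PR sites and 5.29% of all PR sites of both hormones. It held 1.03% (0.807 to 1.30) of the lost, 2.87% (1.92 to 4.12) of the kept E2 and 5.51% (5.09 to 5.96) of the gained sites, and gained sites were ahead of the kept sites of their list (2.90%) by 2.61 points (1.31 to 3.59). With R5020, the ER list was met by 4.08% of all E2 PR sites and 8.34% of all PR sites of both hormones, and here kept sites led. It held 2.42% (2.07 to 2.81) of the lost, 16% (13.8 to 18.5) of the kept E2, 16.5% (14.2 to 18.9) of the kept sites of both hormones and 7.59% (7.10 to 8.10) of the gained sites. Kept sites exceeded gained ones there by 8.89 points (6.66 to 11.4). Within score bins that lead had intervals above 0 in each bin from 7 to 15 steps. The difference was -0.83 points (-12.8 to 17.4) at 16 to 23 steps and -7.90 points (-28.7 to 14.5) at 24 or more. With both hormones, the ER list was met by 3.91% of all E2 PR sites and 8.07% of all PR sites of both hormones. It held 3.34% (2.93 to 3.78) of the lost, 8.0% (6.37 to 9.88) of the kept E2, 8.79% (7.11 to 10.7) of the kept sites of both hormones and 8.0% (7.50 to 8.53) of the gained sites. Kept and gained sites differed by 0.79 points, with an interval of -0.90 to 2.77. The sign of that difference turned with lists of equal length (-0.37) and with the shared lowest score (-4.61), and without chromosome 3 the interval left out 0 (2.50 points, 0.31 to 5.08).

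The reChIP list was meant to hold fragments that carry ER and PR together. It was met by 2.25% of all E2 PR sites and 9.72% of all PR sites of both hormones. Of the lost sites 1.37% (1.11 to 1.68) lay at a reChIP site, against 8.51% (6.84 to 10.4) of the kept E2 sites and 9.83% (9.28 to 10.4) of the gained sites. Gained sites exceeded lost ones by 8.45 points (7.83 to 9.08), the widest of the 8 gaps between these 2 classes. Kept and gained sites of both hormones differed by -1.34 points (-3.01 to 0.63).

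PR-deficient T47D cells give ER sites formed with little or no PR, as far as their label says, and were the last lists compared. With E2 their ER list was met by 3.4% of all E2 PR sites and 7.75% of all PR sites of both hormones, and with both hormones by 3.03% and 5.95%. In these 2 lists kept and gained sites lay close together: 6.49% (5.05 to 8.20) against 7.87% (7.37 to 8.39) with E2, a difference of -1.37 points (-2.83 to 0.40), and 5.69% (4.34 to 7.32) against 5.97% (5.53 to 6.43) with both hormones, a difference of -0.27 points (-1.63 to 1.39). With R5020 the list was met by 3.01% of all E2 PR sites and 2.86% of all PR sites of both hormones, and only kept sites stood apart in it. It held 8.41% (6.74 to 10.3) of the kept E2 and 7.99% (6.39 to 9.85) of the kept sites of both hormones, against 2.26% (1.93 to 2.64) of the lost and 2.39% (2.11 to 2.70) of the gained sites. Gained and lost sites differed there by 0.13 points (-0.33 to 0.58). Of the 8 lists, this was the 1 in which gained sites did not exceed lost ones with an interval above 0. With every site set to 200 bp, the 24 differences between classes kept their direction and their side of 0.

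**Figure D3:**
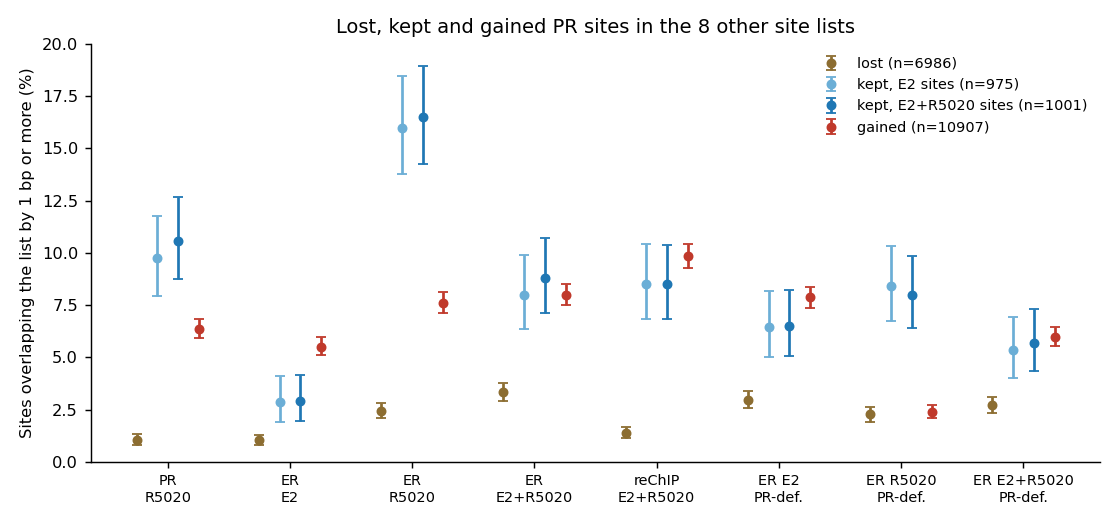
Share of lost, kept and gained PR sites (vertical axis, percent) that overlap a site of each of the 8 other lists (horizontal axis); kept sites are shown as E2 sites and as E2+R5020 sites, and bars are exact 95% intervals. Kept E2+R5020 sites lie above gained ones in the ER lists of R5020, at 16.5% against 7.59% in T47D and 7.99% against 2.39% in PR-deficient cells, and lost sites lie at 3.34% or below throughout.

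What gained sites shared with the ER and reChIP lists varied with their score. At 7 steps, the lowest score, 3.74% (3.19 to 4.36) of the 4221 gained sites lay at a reChIP site and 3.22% (2.71 to 3.8) at an ER site of both hormones. At 12 to 15 steps the shares were 31.7% (28.0 to 35.5) and 27.0% (23.6 to 30.7) of 625 sites. At 16 to 23 steps they were 61.3% (55.5 to 66.8) and 46.0% (40.3 to 51.8) of 302 sites, and at 24 or more steps 80.4% (72.8 to 86.7) and 70.3% (61.9 to 77.8) of 138 sites. The share at PR sites of R5020 alone rose likewise, from 2.94% (2.45 to 3.49) to 59.4% (50.7 to 67.7), and that at ER sites of R5020 from 4.07% (3.50 to 4.72) to 52.9% (44.2 to 61.4). High-scoring sites were also longer, with a median of 750.5 bp at 24 or more steps against 280 bp at 7 steps. With every site set to 200 bp, the reChIP share still rose from 3.22% to 78.3% and the ER share of both hormones from 3.03% to 69.6%.

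Sharing with PR-deficient cells rose in their lists of E2 and of both hormones and not in their list of R5020. The gained sites at an ER site of E2 in those cells went from 4.74% (4.12 to 5.42) at 7 steps to 34.1% (26.2 to 42.6) at 24 or more, and at one of both hormones from 3.74% (3.19 to 4.36) to 27.5% (20.3 to 35.8). Sites of these 2 lists were long, with medians of 1076.5 and 1329 bp against 236 bp in the R5020 list of those cells. With every site set to 200 bp, the shares still rose, from 2.30% to 23.2% with E2 and from 1.66% to 14.5% with both hormones. In the R5020 list of those cells the share was 2.13% (1.72 to 2.61) at 7 steps, 3.04% (1.84 to 4.71) at 12 to 15 and 4.35% (1.61 to 9.22) at 24 or more. The highest-scoring gained sites were therefore found with R5020 in 52.9% of cases in the ER list of T47D and in 4.35% of cases in that of PR-deficient cells. Other differences between the 2 lines and their vehicle libraries cannot be told apart from the loss of PR.

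Kept sites of the same score were less often at reChIP sites in the middle of the range. At 10 to 11 steps 6.32% (3.20 to 11) of the 174 kept and 14.1% (12.2 to 16.2) of the 1177 gained sites lay at a reChIP site, a difference of -7.78 points (-11.2 to -2.78). At 12 to 15 steps the shares were 20.8% (13.2 to 30.3) and 31.7%, a difference of -10.8 points (-18.7 to -1.03). At 24 or more steps they were 65.0% (40.8 to 84.6) of 20 sites and 80.4%, a difference of -15.4 points whose interval, -37.9 to 3.0, took in 0. At the ER sites of both hormones the difference of kept minus gained sites was -25.3 points (-37.6 to -6.79) at 16 to 23 steps and -25.3 points (-45.7 to -2.98) at 24 or more. It was 5.90 points (0.83 to 12.3) at 10 to 11 steps. The roles were reversed for the R5020 list of PR-deficient cells, where kept sites led gained ones at 7, 8, 9, 10 to 11, 12 to 15 and 24 or more steps with intervals above 0. At 10 to 11 steps the values were 10.3% (6.25 to 15.9) of the kept and 2.38% (1.59 to 3.42) of the gained sites.

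**Figure D4:**
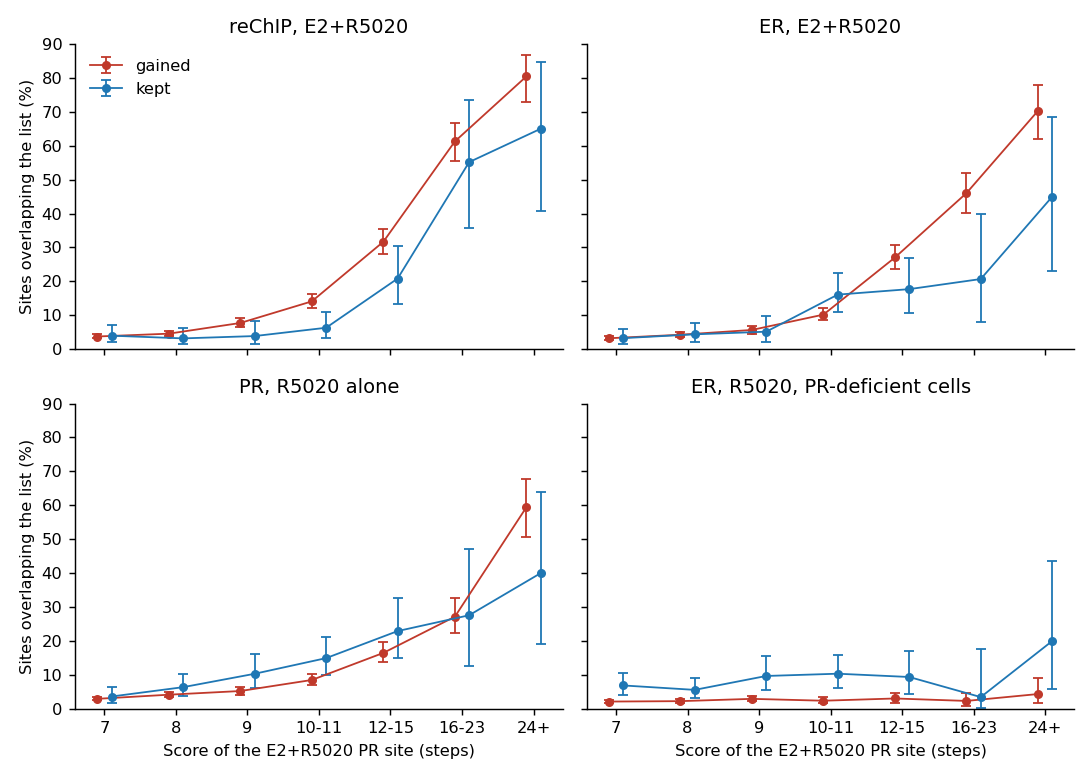
Share of gained and kept PR sites of E2+R5020 (vertical axes, percent) that overlap 4 other lists, by score in steps of the E2+R5020 list (horizontal axes, ordered bins); bars are exact 95% intervals. Gained sites rise to 80.4% in the reChIP list and 70.3% in the ER list of both hormones and stay at or below 4.35% in the R5020 ER list of PR-deficient cells.

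Most of the 440 gained sites at 16 or more steps were present in at least 1 other list. Of these, 198 (45.0%, 40.3 to 49.8) lay both at an ER site of both hormones and at a reChIP site, and 81 (18.4%, 14.9 to 22.4) lay at a PR site of R5020 as well. A further set of 98 (22.3%, 18.5 to 26.5) lay at a reChIP site without an ER site of both hormones. An ER site of T47D under any treatment was met by 266 (60.5%, 55.7 to 65.1), and an ER site of PR-deficient cells by 149 (33.9%, 29.4 to 38.5). No other list held 55 of them (12.5%, 9.56 to 16), against 72.7% of all gained sites. Of all gained sites 8.0% lay at an ER site of both hormones and 9.83% at a reChIP site. The shares of the combined groups over all gained sites were not computed. Of the 49 kept sites of that height, 11 (22.4%, 11.8 to 36.6) lay at both an ER and a reChIP site of both hormones and 8 (16.3%, 7.32 to 29.7) in no other list.

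Gained sites were next split by whether R5020 alone also gave a PR site there. It did at 693 gained sites (6.35%), and 10214 were listed with neither hormone alone. The former had a median of 10 steps and 440 bp, the latter 8 steps and 285 bp. Gained sites with an R5020 PR site lay at an ER site of R5020 in 33.9% of cases (30.4 to 37.6), against 5.81% (5.36 to 6.28) of those without, a difference of 28.1 points (24.6 to 31.7). At reChIP sites the shares were 23.8% (20.7 to 27.2) and 8.88% (8.34 to 9.45), and at ER sites of both hormones 22.8% (19.7 to 26.1) and 7.0% (6.51 to 7.51). At ER sites of E2 they were 9.09% (7.06 to 11.5) and 5.27% (4.84 to 5.72). Among the 10214 sites listed for PR with both hormones only, 907 lay at a reChIP site and 715 at an ER site of both hormones.

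The highest sites of each class show the contrast place by place. Coordinates follow the hg19 build, and the genes at these places were not analysed here. The 5 gained sites of highest score were all listed in other libraries with progestin. The first, chromosome 3 at 127022793 to 127023743, was 951 bp long with a score of 93 steps and lay at PR and ER sites of R5020, an ER site of both hormones and a reChIP site. Chromosome 21 at 39018467 to 39019365 followed with 68 steps and lay at an R5020 PR site and a reChIP site, with no ER site listed. Chromosome 4 at 6634640 to 6635707 had 65 steps and was present in 7 of the 8 other lists, the exception being R5020 in PR-deficient cells. Chromosome 13 at 111133816 to 111134471 had 62 steps and chromosome 6 at 34430069 to 34430839 had 59 steps, and both lay in the same 4 lists as the first. No ER list of PR-deficient cells held 4 of these 5 places. Of all 440 gained sites at 16 or more steps, 33.9% met such a list, so most were likewise in none of them.

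The kept sites that were highest with both hormones had E2 partners of 10 or 12 steps, where the E2 sites of all 1019 pairs had a median of 10. The first, chromosome 14 at 69036316 to 69037334, had 57 steps over 1019 bp with both hormones. Its E2 partner at 69036376 to 69036593 had 10 steps over 218 bp, and the place was held by 6 of the 8 other lists. Chromosome 10 at 1658516 to 1660088 had 48 steps over 1573 bp, and its E2 partner, 757 bp long, had 12 steps. Chromosome 8 at 66934336 to 66935157 and at 37721279 to 37722060 had 46 and 39 steps, and chromosome 11 at 48102595 to 48103204 had 38 steps. The E2 partner of each of these 3 had 10 steps. All 5 places held a reChIP site, and 4 held an R5020 PR site, the exception being the first of the 2 on chromosome 8. Over all 20 kept sites at 24 or more steps, these shares were 65.0% and 40.0%. Of all kept sites, 16 (1.60%) lay at both an R5020 PR site and a reChIP site, against 165 gained sites (1.51%). The 5 highest of those 16 were 4 of the places above and chromosome 17 at 29981770 to 29982474 with 34 steps, whose E2 partner had 9 steps and which also held ER sites of all 3 treatments of T47D.

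The kept sites that were highest with E2 looked otherwise. The site on chromosome 12 at 112178208 to 112178432 had 22 steps with E2 over 225 bp, its partner had 19 steps, and it also lay at an ER site of both hormones. Chromosome 19 at 44960883 to 44961086 had 22 steps over 204 bp, its partner had 16 steps, and it lay at an ER site of R5020 in PR-deficient cells. Chromosome 8 at 86778815 to 86779190 had 21 steps, and met 2 sites of both hormones, at 10 and 13 steps. Chromosome 3 at 195905232 to 195905624 had 20 steps and its partner 7, the lowest score of that list. Chromosome 1 at 143447781 to 143448300 had 19 steps and its partner 15, and it lay beside a long stretch of chromosome empty of sites in all lists. The last 3 were in none of the 8 other lists, and none of the 5 lay at a reChIP site or at an R5020 PR site. Such places were common in the class. Of all kept E2 sites 59.6% were in no other list. Of the 56 at 14 or more steps, 2 (3.57%, 0.435 to 12.3) lay at a reChIP site and 4 (7.14%, 1.98 to 17.3) at an R5020 PR site. These intervals take in the shares of all kept E2 sites, 8.51% and 9.74%.

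The 5 lost sites of highest score were 103 to 288 bp long, and 3 of them were in no other list. Chromosome 3 at 3153838 to 3153940 led with 20 steps over 103 bp and was in no other list. Chromosome 1 at 25016075 to 25016186, with 19 steps over 112 bp, lay at an R5020 ER site of PR-deficient cells. Chromosome 22 at 20065675 to 20065925 had 17 steps and lay at an ER site of both hormones. Chromosome 8 at 144984632 to 144984830, also with 17 steps, and chromosome 10 at 11868682 to 11868969, with 16 steps, were in no other list. Of all 36 lost sites at 14 or more steps, 10 (27.8%, 14.2 to 45.2) lay at an ER site of both hormones, 9 (25%, 12.1 to 42.2) at an R5020 ER site of PR-deficient cells and 1 (2.78%, 0.0703 to 14.5) at an R5020 PR site. Over all lost sites these shares were 3.34%, 2.26% and 1.04%. The 56 kept E2 sites of that height were near this in the R5020 ER list of PR-deficient cells, at 23.2% (13.0 to 36.4), and above the kept E2 sites at 9 steps, at 5.98% (3.94 to 8.64).

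The kept share varied between chromosomes. On chromosome 3, 271 of 955 E2 sites were kept (28.4%, 25.5 to 31.4), which is 27.8% of all kept E2 sites on the chromosome that held 12.0% of the E2 list. The share was 20.6% (14 to 28.6) on chromosome 21 and 42.9% (24.5 to 62.8) on chromosome Y, where 12 of 28 sites were kept. It was 5.68% (3.83 to 8.05) on chromosome 7, 6.17% (4.34 to 8.48) on chromosome 12 and 5.20% (3.25 to 7.84) on chromosome 14. Site density also differed, from 6.77 E2 sites and 10.1 sites of both hormones per Mb on chromosome 11 to 0.374 and 0.626 on chromosome 13 and 0.425 of either on chromosome X. The sites of both hormones outnumbered E2 sites by 2.25 to 1 on chromosome Y, 2.24 to 1 on chromosome 22 and 1.13 to 1 on chromosome 12, and the numbers were equal on chromosome X. Chromosome Y held only 0.352% of the E2 list and 0.529% of the list of both hormones. Whether the sites listed there are rightly placed, or are DNA of these cells at all, cannot be told from the lists, so the Y values are not evidence of binding. Of the kept E2 sites, 10.4% (8.52 to 12.4) lay within 2 Mb of a siteless gap spanning at least 3 Mb, against 3.28% (2.87 to 3.72) of the lost sites. In the other list the shares were 10.5% (8.66 to 12.6) of the kept and 6.34% (5.89 to 6.82) of the gained sites.

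**Figure D5:**
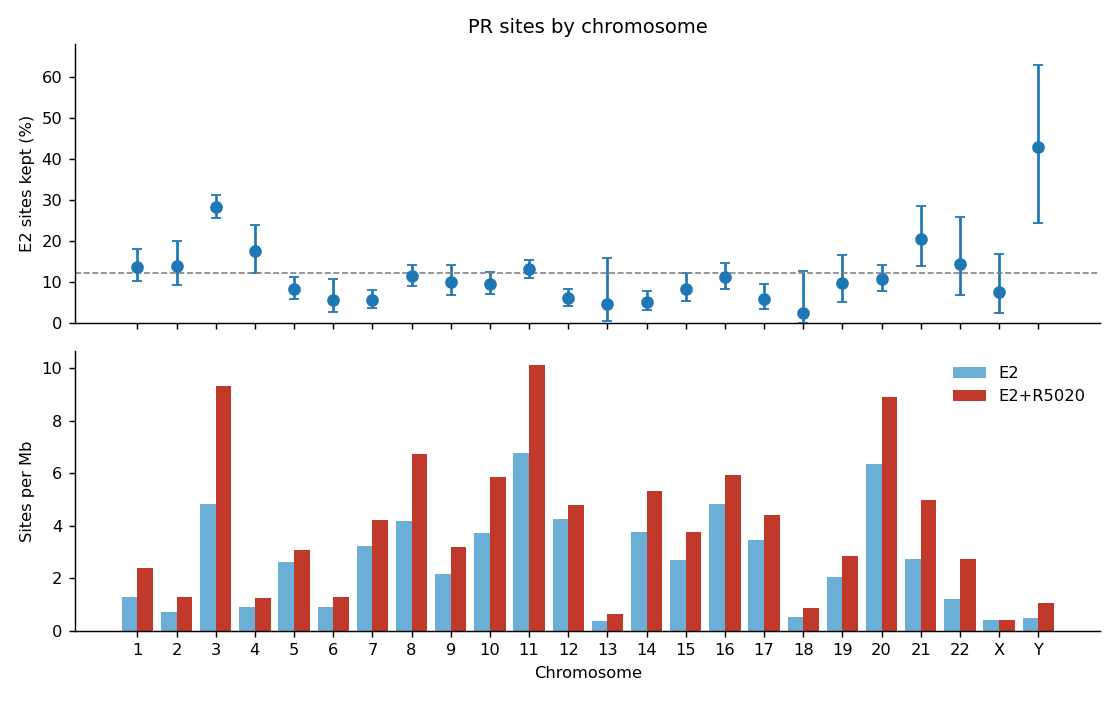
Share of E2 PR sites kept with both hormones (top, percent, with exact 95% intervals; the dashed line is the share over all chromosomes, 12.2%) and PR sites per Mb of E2 and E2+R5020 (bottom), by chromosome; chromosome length is the end of the last site over the 10 lists. Chromosome 3 stands at 28.4% kept, and chromosomes 3, 11 and 20 have the most sites of both hormones per Mb.

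The high share on chromosome 3 came from its distal end. From 160 Mb onward, a boundary chosen after the data were seen, 252 of 681 E2 sites were kept (37.0%, 33.4 to 40.8), against 19 of 274 (6.93%, 4.23 to 10.6) on the rest of the chromosome and 704 of 7006 (10.0%, 9.35 to 10.8) on all others. The sites there were dense: those of both hormones covered 1.27% of the bases, against 0.0807% of the rest of chromosome 3 and 0.117% of the other chromosomes. In the last stretch, 190 to 197.95 Mb, they covered 3.48% of the bases and 165 of 356 E2 sites (46.3%) were kept. The sites there were low in score. Of the 1449 sites of both hormones from 160 Mb onward, 0.552% reached 16 steps, against 5.61% on the rest of chromosome 3 and 4.56% on the others. Kept E2 sites there lay at ER sites of both hormones in 1.98% of cases and at reChIP sites in 1.59%, against 10.4% and 11.1% on the other chromosomes. At ER sites of R5020 the values were 19.8% and 14.6%, and at R5020 PR sites 12.7% and 8.95%. Gained sites differed in the same direction. They lay at ER sites of both hormones in 1.94% of cases there and 8.78% on the other chromosomes, and at reChIP sites in 1.69% and 10.9%. For gained sites at ER sites of R5020 the values were 12.5% and 7.07%, and at R5020 PR sites 7.26% and 6.24%. A site in a dense stretch meets another site more readily, and how much of the kept share there this makes up was not tested.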

How the data were processed

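Bowtie2 (a read aligner), MACS (a peak caller) and the hg19 build are named in the submitters' processing notes; their versions, settings and filters are not given in the sources used here. A vehicle library had been subtracted from each list, and an IgG control too for the reChIP, per the labels. The deposited lists hold position, length (which in all rows counts both end bases, so positions start at 1) and the authors' score, whose unit is not stated. Scores of the 3 PR lists are whole multiples of 1 step within 0.02 steps in 100% of sites, and were used within a list, except in the setting that applies the lowest score of the E2 list to the other list, although the 2 scales may differ. The deposited score and length are the only values per site.

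The 26 samples form 26 groups of 1 library, of which 10 have a list. Overlap (1 bp or more) was found with Python 3.11.15, NumPy 2.4.6 and pandas 2.3.3 and checked against bedtools on simulated lists. Shares carry exact Clopper-Pearson and differences Newcombe 95% intervals (SciPy 1.17.1), with no p-value, since sites of 1 library are not replicates. Over whole classes, 24 differences were computed at the 1 bp rule, a difference being called when its interval left out 0. More were computed within score bins, with sites of 200 bp and between sites split by the R5020 PR list. The differences given within score bins were picked from these, with no correction for their number. Plots were drawn with matplotlib 3.10.9. Named sites are the 5 of highest score in each class, kept sites by each list's score, and the 5 highest kept sites that also hold an R5020 PR and a reChIP site, with ties by length and then position. The classes, lists and score bins were chosen with earlier results of these data known. Planned searches for motifs and for genes near sites were left out: no hg19 sequence or gene annotation was used here. Alternatives are listed in the closing section.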

Additional observations from a re-analysis of the deposited data

How the results depend on the processing

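No paired analysis was possible because 1 library stands behind every group. The share of E2 sites kept, 12.2%, stayed within its interval with the lowest score of each list raised by 1 step (12.5%) and with sites within 500 bp merged (12.2%). It was 8.53% with 50% overlap of both sites, 11% with centres within 200 bp and with sites of 200 bp, 17.6% with gaps of up to 1000 bp, 11.5% in the higher-scoring 50%, 9.70% with lists of equal length and 11.5% without chromosome Y and the flanks of long stretches without sites. Among settings added after the data were seen it was 10.0% without chromosome 3, 9.34% without chromosomes 3, 8, 10 and 11, and 4.06% with the shared lowest score. In the same order, the share of sites of both hormones also listed with E2, 8.41%, was 5.70%, 7.42% and 7.42%, 13.2%, 7.88% and 9.87%, then 7.13%, 6.89% and 12.5%, and 5.71% with the lowest score raised by 1 step; it stayed within its interval with merged sites (8.36%) and without chromosome Y and flanks (8.06%). The lead of kept over gained sites at R5020 PR sites, 4.24 points, had an interval that took in 0 with 50% overlap (0.63), in the higher-scoring 50% (2.27) and with the shared lowest score (3.69). Their difference at ER sites of both hormones, 0.79 points, turned with lists of equal length (-0.37) and the shared lowest score (-4.61), and its interval left out 0 without chromosome 3 (2.50). The cause was not tested. The lead of kept over lost sites at R5020 PR sites held under all 12 alternatives run. Depth is unknown, so absence from a list does not show absence of binding.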

Other observations

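The share of sites on distal chromosome 3 differed in degree between the lists. The stretch from 160 Mb onward spans 37.95 Mb, against 160 Mb for the rest of chromosome 3 and 2896.45 Mb for the other chromosomes. Sites from 160 Mb onward made up 8.55% (7.95 to 9.19) of the E2 PR list, 12.2% (11.6 to 12.8) of the PR list of both hormones and 12.3% (11.5 to 13.2) of the R5020 PR list. The T47D ER list of R5020 had 15.0% (14.1 to 16) of its sites there, while the ER lists of E2 and of both hormones had 1.57% (1.21 to 2.0) and 1.88% (1.69 to 2.08). The reChIP list had 3.09% (2.76 to 3.45). In PR-deficient cells the shares were 1.80% (1.51 to 2.12) with E2, 3.76% (3.38 to 4.17) with R5020 and 2.0% (1.65 to 2.39) with both hormones.

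Chromosome 11 held 11.5% of either PR list compared here, 12.6% of the R5020 PR list and 12.4% of the T47D ER list of R5020, against 5.38% and 5.52% of the T47D ER lists of E2 and of both hormones. In PR-deficient cells it held 11.6% of the R5020 list and 6.73% of the E2 list.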
